A study of Mus musculus with 16 samples.

Results

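The 8 genes described here encode receptors of natural killer (NK) cells: Klrb1c (NK1.1), Klrd1 (CD94), Klrk1 (NKG2D), Klrc1 (NKG2A), Klrc2 (NKG2C), Klrg1, Klra8 (Ly49H) and Ncr1 (NKp46). They were taken by gene symbol from a table of 26382 genes, and all 8 were found. The table holds bulk RNA sequencing of C57BL/6 mouse hamstring muscle in a model of histidyl-tRNA synthetase (HRS, or Jo-1) myositis, in which intramuscular injection of the recombinant autoantigen brings on muscle inflammation. The 16 libraries came from 9 mice, described as females of 8 to 10 weeks and sampled at day 14. Mice are numbered 1 to 9 in the order of the numbers in their titles. HRS legs were the left legs of 5 mice (3 to 7), labelled as given HRS at 3 to 5 mg/mL. Contralateral PBS legs were the right legs of the same 5 mice. PBS-only mice were 2 animals (8 and 9) with both legs sequenced, so that their 4 libraries are not 4 independent animals. HRS-MBP mice were 2 animals (1 and 2) whose titles name an MBP fusion protein at 2 to 3 mg/mL and give no leg, while their treatment label gives the same 3 to 5 mg/mL as the others. The written protocol describes injection of HRS into both hamstrings, and the sample titles place HRS in the left leg and PBS in the right. The grouping follows the titles. All groups share strain and time point. Each mouse is a single injected animal, and the labels do not say which of the 3 sequencing instruments read which library, so instrument and group cannot be told apart.

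NK cells are innate lymphocytes that kill stressed or infected cells and secrete interferon gamma without rearranged antigen receptors. Whether a cell is attacked depends on the balance between activating receptors, which signal through the adaptors DAP10 (Hcst), DAP12 (Tyrobp) or FcR gamma (Fcer1g), and inhibitory receptors, which carry motifs that recruit phosphatases such as SHP-1 (Ptpn6). NKG2D binds stress ligands of the RAE-1, H60 and MULT1 families, CD94 pairs with NKG2A (inhibitory) or NKG2C (activating) to read the class Ib molecule Qa-1 (H2-T23), Ly49H sees a cytomegalovirus protein, and KLRG1 is an inhibitory receptor for cadherins. Ncr1 and Klrb1c are among the markers most restricted to NK cells and related innate lymphocytes in this strain, whereas Klrk1, Klrd1, Klrc1 and Klrg1 are also made by activated CD8+ T cells.

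On mouse chromosome 6 lie 7 of the genes. From Klrb1c to Klra8 they span chr6:128778485-130129898, 1.35 Mb of the NK gene complex, with Klrg1 apart at chr6:122270596-122282882. Ncr1 lies at chr7:4337724-4345164. These coordinates are those of the deposited table and match the GENCODE M21 annotation of GRCm38, whereas the labels name GRCm39. Klrc1 and Klrc2 are neighbours that share the end of their coding sequence, shown here because it bears on how their reads could be told apart. In the longest coding transcript of each, the last 100 coding bases before the stop codon (exon 6) are identical. The last 140 coding bases, spanning the end of exon 5 and exon 6, differ at 3 bases, which are in capitals (GENCODE M21, minus strand, intron left out).

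Klrc1 chr6:129674862-129675324: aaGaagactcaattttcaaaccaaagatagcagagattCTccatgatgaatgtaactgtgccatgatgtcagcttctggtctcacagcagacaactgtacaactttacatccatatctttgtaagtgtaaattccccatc
Klrc2 chr6:129656374-129656836: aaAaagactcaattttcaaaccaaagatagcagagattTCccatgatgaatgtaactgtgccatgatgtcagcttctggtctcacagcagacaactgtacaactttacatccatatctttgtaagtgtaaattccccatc

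Over all annotated transcripts, 38.6% of the 50-base words of Klrc1 also occur in another gene, 36.6% in Klrc2. The share was 16.3% for Klrc2, 33.1% for Klra8, whose main partner is the pseudogene Klra14-ps, and 17.0% for Klrb1c. It was 0% for Klrd1, Klrk1, Klrg1 and Ncr1. The values of those 4 genes were whole multiples of the worth of 1 read, within 0.02 reads, in every library in which they were worth at least 0.5 reads (15, 16, 15 and 14 libraries). By the same measure Klrc1 was whole in 2 of 11 libraries, Klrc2 in 5 of 14, Klra8 in 6 of 13 and Klrb1c in 9 of 16. Levels of those 4 genes are therefore less certain than those of the others.

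Because the 8 genes were high in the same libraries, the 250 bases before their RefSeq start sites (GRCm38.p6) were read for short strings linked to lymphocyte transcription factors, a set chosen after the expression values were known. Windows were matched for 6 of the 8 genes: Klrb1c, Klrk1, Klrc1, Klrc2, Klra8 and Ncr1. The Runx core TGTGGT, searched on both strands, occurred in 5 of the 6 (all but Klra8) and in 14.0% of the 32851 windows of the same length. GTGTGA, a T-box core, was in 1 of 6 (Ncr1) against 12.3% of windows, AGGAAG, an Ets string, in 1 of 6 (Klrb1c) against 29.5%, and TATAAA in 3 of 6 against 12.4%. CCGGAAG, which overlaps the Ets string in its last 5 letters, the GAS string TTCNNNGAA, TGANTCA and AGATAA were in none of the 6, against 6.91%, 7.02%, 6.75% and 9.99% of windows. The interferon-stimulated response element core was also in none of the 6, against 2.98% of windows. These counts are by gene and the shares by window, and a gene may have several windows, so they are not directly comparable. Klrc1 and Klrc2 are neighbours with shared sequence and may not be independent cases. Whether any string was more frequent in these genes than in other windows was not tested. The windows of Ncr1 and Klrk1, genes whose reads are not shared with others, are printed with the Runx string in capitals. Neither window overlaps an annotated exon. In Ncr1 the matches begin 176 and 41 bases before the start, and in Klrk1 the match begins 129 bases before it.

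Ncr1 chr7:4337465-4337714 (plus strand): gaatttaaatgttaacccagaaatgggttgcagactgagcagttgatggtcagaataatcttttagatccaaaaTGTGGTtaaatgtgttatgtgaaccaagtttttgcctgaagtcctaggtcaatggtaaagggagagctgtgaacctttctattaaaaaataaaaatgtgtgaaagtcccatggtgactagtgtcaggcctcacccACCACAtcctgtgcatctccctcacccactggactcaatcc
Klrk1 chr6:129623865-129624114 (minus strand): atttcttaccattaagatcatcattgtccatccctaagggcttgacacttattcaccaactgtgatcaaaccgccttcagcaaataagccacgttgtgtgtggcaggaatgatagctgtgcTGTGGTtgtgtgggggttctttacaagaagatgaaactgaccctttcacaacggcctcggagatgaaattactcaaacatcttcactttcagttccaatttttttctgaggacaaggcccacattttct

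Levels are given in the authors' normalized counts, a linear scale. Fold changes are on the log2(normalized count + 0.5) scale, which understates the change of genes near 0, and a gene was called when limma's adjusted p was below 0.05 and the fold change beyond 1 in log2. The smallest steps of the values imply 8595334 to 73937772 reads a library, lowest in the PBS-only libraries (8595334 to 40671830), so that 3 reads were worth 0.0324 to 0.364 normalized counts. Mitochondrial transcripts took 3.41 to 11.1% of the total in HRS legs and 9.69 to 13.1% in the 9 PBS libraries. Muscle fibre markers (Acta1, Ckm, Myh4 and 4 others) summed to at least 38233 in every library, far above any other marker list. All 8 genes passed the filter of a mean of 0.5 over the 16 libraries, but 7 of them did so only through the HRS libraries, since over the 9 PBS libraries only Klrk1 averaged more than 0.5 (0.737). For those 7 genes, passing the filter already required a higher level in HRS muscle. HRS leg 5 stood apart, with the highest value of all 8 genes, 1.86 to 4.96 times the mean of the other 4 HRS legs. Contralateral PBS leg 7 was the highest of its group for all 8 genes, while HRS leg 7 was the lowest of its group for 6, and results are given below with and without these mice.

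The central comparison set the HRS leg of each mouse against its own PBS leg. All 8 receptors rose in HRS legs, by 1.39 to 3.23 in log2 on the fitted scale and by 14.7 to 25.5 times in group means. The lowest HRS leg lay above the highest PBS leg for every one of them. Calls of a higher level were made for 8 of 8 genes, where 16.9% of the 16414 genes tested were called higher, and groups did not overlap for 8 of 8, where 18.3% of tested genes did not. The median fold change was 2.21 for the 8 genes and 0.08 for all tested genes. In bulk muscle, more cells of a type and more RNA per cell cannot be told apart.

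Among the activating receptors, Klrk1 was the most abundant in normalized counts and had the largest change on the log2(normalized count + 0.5) scale, which favours abundant genes. By ratio of group means the largest was Klrc2 (25.5 times, against 17.1 for Klrk1). Klrk1 was at 10.9, 9.06, 27.2, 7.51 and 6.82 in the HRS legs of mice 3 to 7 in order, and at 0.385, 0.906, 0.6004, 0.647 and 1.05 in their PBS legs. Every HRS leg was thus at least 6.50 times the highest PBS leg. Its fold change was 3.23 ± 0.32 (SE, 5 against 5 libraries, limma adjusted p = 2.96e-06).

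Ncr1, an immunoglobulin-like receptor that signals through FcR gamma and CD3 zeta, stood at 2.60, 2.26, 4.48, 1.67 and 1.68 in the HRS legs and at 0.128, 0.115, 0.139, 0.147 and 0.323 in the PBS legs. The PBS values rested on 31 reads in all, against 785 in HRS legs. Its fold change was 2.12 ± 0.23 (limma adjusted p = 5.99e-06). Klrb1c, the NK1.1 antigen, was at 3.86, 3.21, 6.04, 2.86 and 3.08 in HRS legs and at 0.0320, 0.214, 0.369, 0.0294 and 0.539 in PBS legs. Its HRS legs were the least spread of the 8 genes relative to their mean (3.81 ± 1.301, SD, n = 5). The fold change was 2.55 ± 0.23 (limma adjusted p = 1.96e-06). Klra8, the DAP12-coupled Ly49H, was lower, at 1.21, 1.26, 2.50, 0.983 and 0.655 in HRS legs and at 0.0320, 0.0824, 0.0924, 0 and 0.242 in PBS legs. It changed by 1.57 ± 0.21 (limma adjusted p = 4.41e-05).

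The 3 genes of the CD94-NKG2 receptors moved together. Klrd1, the shared CD94 chain, was at 3.78, 3.36, 6.98, 3.19 and 1.65 in HRS legs and at 0.128, 0.247, 0.231, 0.0882 and 0.592 in PBS legs, a fold change of 2.42 ± 0.28 (limma adjusted p = 1.09e-05). Klrc1, the inhibitory partner, was at 2.68, 2.01, 6.31, 2.01 and 1.23 in HRS legs and at 0, 0.0697, 0.231, 5e-10 and 0.276 in PBS legs. The value of 5e-10 is far below the worth of a read. The fold change of Klrc1 was 2.30 ± 0.29 (limma adjusted p = 1.98e-05). Klrc2, the activating partner, was at 1.46, 1.80, 3.23, 1.13 and 1.10 in HRS legs and at 0.0641, 0.0622, 8.89e-09, 0.0882 and 0.128 in PBS legs, a fold change of 1.91 ± 0.21 (limma adjusted p = 8.21e-06). With Klrc1 and Klrc2 summed into 1 gene, a check added after the values were seen, the fold change was 2.77.

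Klrg1, an inhibitory receptor of mature NK and effector T cells, had the widest relative spread and, on the log2(normalized count + 0.5) scale, the smallest change. By ratio of group means it changed 18.5 times, more than Klrk1 (17.1). That order rested on mouse 5, without which Klrg1 was at 11.46 and Klrk1 at 11.48. It was at 0.985, 0.713, 3.39, 0.694 and 0.343 in HRS legs and at 0.0320, 0.0989, 0.0924, 0 and 0.108 in PBS legs. The lowest HRS leg (7) was 3.18 times the highest PBS leg, which belonged to the same mouse. Its fold change was 1.39 ± 0.31 (limma adjusted p = 0.00166). Quantile normalization, which made all libraries share 1 distribution, put it at 0.98, just under the fold threshold.

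**Figure D1:**
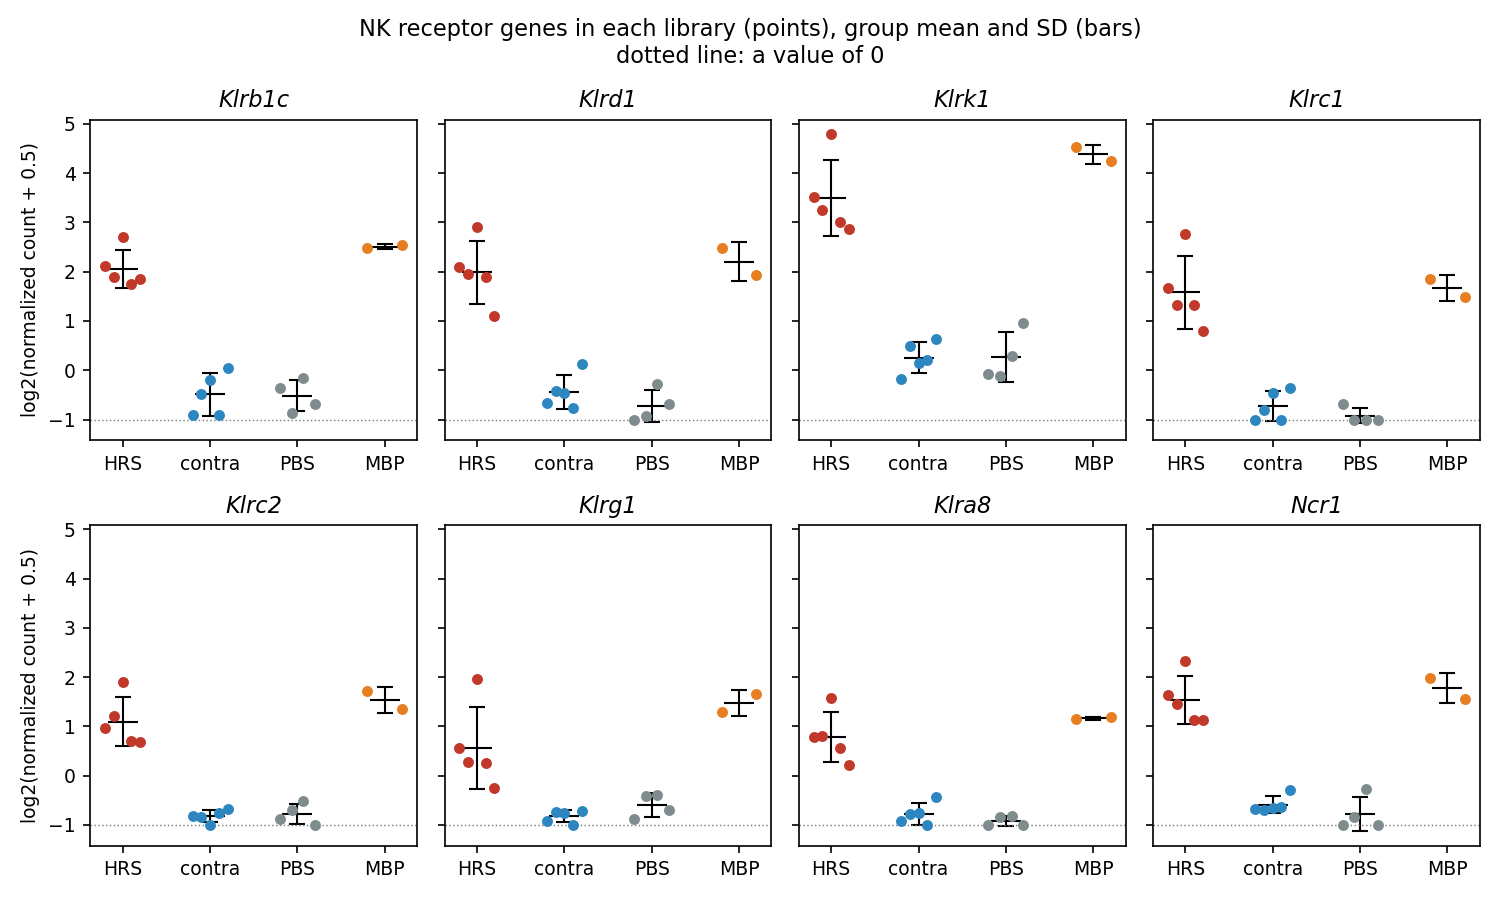
Level of each of the 8 genes as log2(normalized count + 0.5) in the 16 libraries (points), by group (HRS, HRS legs; contra, contralateral PBS legs; PBS, PBS-only mice; MBP, HRS-MBP mice), with the group mean and SD of the log values (bars). The HRS and HRS-MBP points lie above all 9 PBS points in every panel, and the highest HRS leg in each panel is that of mouse 5.

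Within mice, the HRS leg was above the PBS leg in 5 of 5 animals for each of the 8 genes, where 26.3% of tested genes were higher in all 5 mice. The exact two-sided sign-flip test over 5 pairs gave p = 0.0625 for each, the smallest p that 5 pairs allow, so this test alone could not reach 0.05. The within-mouse differences of Klrk1 were 3.69, 2.76, 4.65, 2.80 and 2.24 in log2 for mice 3 to 7, a mean of 3.23 ± 0.95 (SD, n = 5). Those of Klrb1c were 3.03, 2.38, 2.91, 2.67 and 1.79, and those of Ncr1 were 2.30, 2.16, 2.96, 1.75 and 1.41. Mouse 7 had the smallest difference for each of the 8 genes, down to 0.47 for Klrg1 and 0.64 for Klra8. Mouse 5 had the largest for 7 genes, with mouse 3 ahead of it for Klrb1c. Without mouse 5 the ratio of group means ran from 11.3 (Klrd1) to 22.9 (Klrc1), with Klrg1 at 11.5 instead of 18.5 and Klrc2 at 16.1 instead of 25.5. Without mouse 7 it ran from 20.8 (Ncr1) to 43.3 (Klrc1, instead of 24.7), with Klra8 at 28.8 instead of 14.7, Klrd1 at 24.9 instead of 14.7 and Klrb1c at 24.7 instead of 16.1. All 8 genes were still called higher with any 1 mouse left out.

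**Figure D2:**
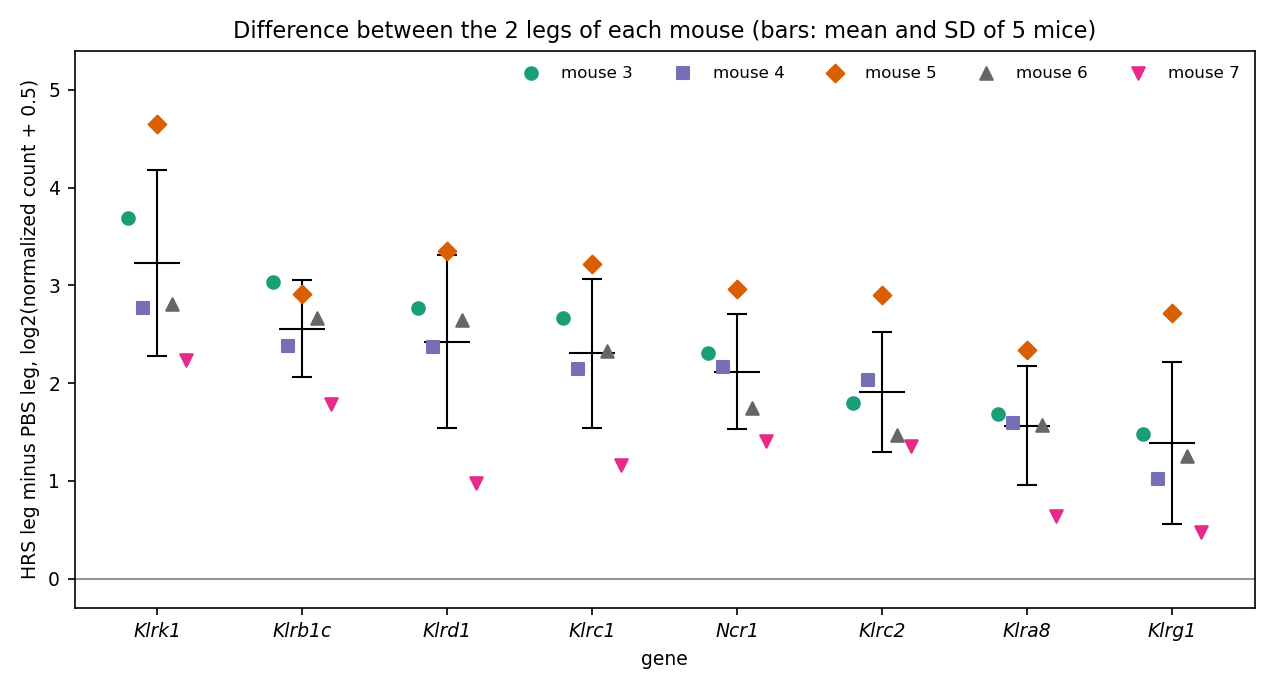
Difference between the HRS leg and the PBS leg of the same mouse for each gene, on the log2(normalized count + 0.5) scale (a symbol for each mouse; bars, mean and SD of 5 mice; the line at 0 marks equal legs). All 40 differences are above 0, from 0.47 for Klrg1 in mouse 7 to 4.65 for Klrk1 in mouse 5.

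A second set of controls, the PBS-only mice, had PBS in both legs by their titles. Against them the 8 genes were again higher in HRS legs, with fold changes from 1.16 (Klrg1) to 3.22 (Klrk1). All 8 were called higher, against 18.9% of tested genes, and for 8 of 8 the groups did not overlap, against 26.6% of tested genes. This comparison uses the same HRS legs as the one above. In the left and right legs of mouse 8 and then of mouse 9, Klrk1 was at 0.445, 0.426, 0.717 and 1.46. Klrb1c was at 0.283, 0.0481, 0.391 and 0.121, and Klrd1 at 0, 0.0284, 0.326 and 0.121. These levels rest on few reads, 49 for Klrk1, 16 for Klrb1c and 7 for Klrd1 over the 4 libraries.

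Ncr1 was at 0, 0.0568, 0.326 and 0 in the PBS-only libraries, so that 5 of its 7 reads came from the left leg of mouse 9. Klrc2 was at 0.0404, 0.114, 0.196 and 0, and Klrg1 at 0.0404, 0.256, 0.261 and 0.121. Klrc1 was above 0 in 1 PBS-only library (0.121) and Klra8 in 2 (0.0568 and 0.0652), each on 3 reads. Pooled over libraries, HRS legs had 79.9 times the Klrc1 of PBS-only mice (95% counting interval 27.2 to 388) and 37.9 times the Klra8 (12.9 to 184). The fitted fold changes were 2.50 ± 0.30 for Klrc1 and 1.71 ± 0.23 for Klra8 (limma adjusted p = 1.53e-05 and 3.30e-05), and 2.31 ± 0.24 for Ncr1 (4.46e-06). The fit took the 2 legs of each PBS-only mouse as separate libraries, so these p-values rest on fewer animals than libraries. In this comparison no call changed with those legs averaged per mouse. Klrg1 was the least secure call, at 1.16 ± 0.32 (limma adjusted p = 0.00682). Its lowest HRS leg was 1.31 times its highest PBS-only leg, and the call was lost without mouse 5 (0.81), without mouse 8 (1.10, adjusted p = 0.0516) and under quantile normalization (0.63, adjusted p = 0.0876).

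The contralateral PBS legs were also compared with the PBS-only mice, which asks whether muscle far from the HRS injection differed from muscle of mice without HRS. None of the 8 genes was called by limma in either direction, where 0.00609% of tested genes (1 gene) were called, and 0 of the 8 had an unadjusted p below 0.05, against 5.50% of tested genes. The fold changes ran from -0.23 (Klrg1) to 0.28 (Klrd1) on the log2(normalized count + 0.5) scale, which shrinks changes at these levels. Ratios of group means ran from 0.390 (Klrg1) to 3.81 (Klrc1). Single mice moved several of them by more than 1.5 times. Klrc1 was at 2.48 without mouse 7 and 1.90 without mouse 9, and it was at 0 in the PBS-only libraries without mouse 8. Klra8 went from 2.94 to 1.69 without mouse 7 and Klrk1 from 0.943 to 1.65 without mouse 9. Without mouse 8 and without mouse 9, Klrd1 went from 2.16 to 1.15 and 18.1, and Ncr1 from 1.78 to 1.05 and 5.998. Pooled over libraries, contralateral legs had 0.392 times the Klrg1 of PBS-only mice (95% counting interval 0.172 to 0.883) and 3.17 times the Klrd1 (1.43 to 8.28), intervals that leave out the spread between mice. On the log2 scale, limma's 95% interval for Klrk1 was -0.72 to 0.71, for Klrb1c -0.50 to 0.55 and for Ncr1 -0.32 to 0.71. Groups overlapped for each gene. These levels rest on 3 to 49 reads a gene over the PBS-only group.

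HRS-MBP mice, compared with the same PBS-only mice, had the highest group mean of the 4 groups for 7 genes. The exception was Klrc1, at 2.69 ± 0.58 (SD, n = 2) against 2.85 ± 2.001 in HRS legs (SD, n = 5). Klrk1 was at 22.5 and 18.4 in mice 1 and 2, Ncr1 at 3.46 and 2.45, and Klrb1c at 5.04 and 5.31. The remaining pairs were 5.07 and 3.29 for Klrd1, 3.10 and 2.28 for Klrc1, 2.78 and 2.05 for Klrc2, 1.96 and 2.67 for Klrg1, and 1.71 and 1.78 for Klra8. All 8 were called higher than in PBS-only mice, against 20.7% of tested genes, and for all 8 both libraries lay above all 4 controls, against 39.8% of tested genes. The fold changes were 4.12 ± 0.43 for Klrk1, 3.02 ± 0.32 for Klrb1c, 2.92 ± 0.38 for Klrd1, 2.58 ± 0.39 for Klrc1, 2.55 ± 0.31 for Ncr1, 2.31 ± 0.29 for Klrc2, 2.09 ± 0.29 for Klra8 and 2.07 ± 0.42 for Klrg1, with limma adjusted p-values from 4.50e-06 to 0.000954. A pseudocount of 2 put Klrg1 at 0.99 and Klra8 at 0.88, under the fold threshold.

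Between HRS-MBP mice and HRS legs none of the 8 genes was called by limma, where 0.463% of tested genes were, and 2 of the 8 had an unadjusted p below 0.05, as did 14.4% of tested genes. These were Klrk1, higher in HRS-MBP mice by 0.89 (95% interval 0.0032 to 1.79, adjusted p = 0.345), and Klrg1, by 0.92 (0.057 to 1.78, adjusted p = 0.321). That neither was called rested on HRS leg 5. Without that mouse both were, Klrk1 at 1.22 (limma adjusted p = 0.0359) and Klrg1 at 1.27 (0.0107), while the share called in either direction over all tested genes went from 0.463% to 3.39%. For Klrd1 the difference was 0.21 (-0.58 to 1.002), for Klrc1 0.08 (-0.72 to 0.89) and for Ncr1 0.24 (-0.40 to 0.88). The groups overlapped for each gene, and preparation and dose in the titles differ between them together, so they cannot be told apart. The leg of the HRS-MBP libraries is not given in the labels.

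**Figure D3:**
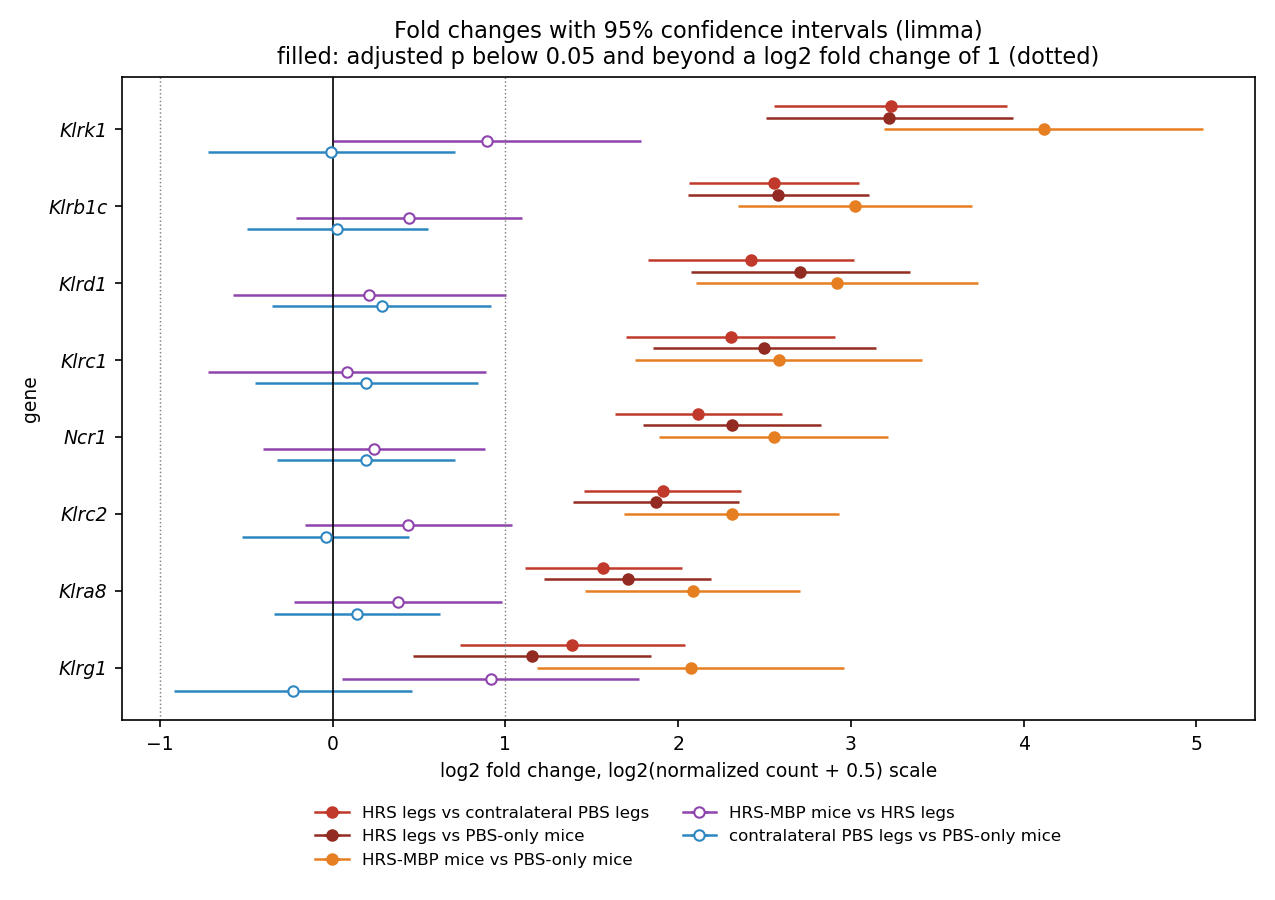
Fold change of each gene in the 5 comparisons, in log2 on the log2(normalized count + 0.5) scale, with limma's 95% confidence interval (bars). Filled points were called (adjusted p below 0.05 and beyond a fold change of 1, dotted lines). The points of the 3 comparisons of HRS muscle with PBS muscle lie to the right of 1 for all 8 genes, and the other 2 are unfilled.

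Divided by exon length, so that genes can be compared, Klrd1 was the highest in HRS legs at 2.96 ± 1.53 normalized counts per kilobase (SD, n = 5), followed by Klrk1 (1.71 ± 1.18), Ncr1 (1.65 ± 0.75), Klrc1 (1.44 ± 1.01), Klrb1c (1.29 ± 0.44), Klra8 (1.12 ± 0.59), Klrg1 (0.87 ± 0.87) and Klrc2 (0.30 ± 0.15). Within libraries, Klrd1 was above Klrk1 in 5 of 5 HRS legs and Klrg1 above Klrc2 in 5 of 5. Ranges of all 7 neighbouring pairs overlapped, and the order of the genes between those ends varied by library, with Klrk1 above Ncr1 in only 1 of 5. The exon length counts every annotated form, 7183 bases for Klrk1 and 5812 for Klrc2 against 1178 to 2961 for the others, which lowers the values of these 2 genes if the long forms were not made. In PBS-only mice the order was led by Klrg1 (0.12 ± 0.08 per kilobase), on 15 reads.

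The share of each gene in the summed level of the 8 varied less between HRS legs than did the levels. Klrk1 took 37.5 to 45.2% in the 5 HRS legs, Klrb1c 10.0 to 18.6%, Klrd1 9.96 to 15.9%, Ncr1 7.46 to 10.1% and Klrg1 2.07 to 5.65%. In HRS-MBP mice Klrk1 took 48.2 and 49.3%, above every HRS leg. Klrc1 took 5.96 and 6.79% there, below the range of 7.44 to 10.5% in HRS legs. These shares were not tested.

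The ratio of Klrc1 to Klrc2 took similar values in several libraries. Klrc1 was 1.83, 1.95 and 1.78 times Klrc2 in HRS legs 3, 5 and 6. The ratio was 1.12 in HRS legs 4 and 7, 1.11 and 1.12 in HRS-MBP mice 1 and 2, and 1.12 in contralateral PBS leg 4, where the values were worth 4.23 and 3.77 reads. The other PBS libraries with reads of both genes were apart from these values, at 2.17 in contralateral leg 7 (10.3 and 4.74 reads) and at 3 reads to 1 in the left leg of PBS-only mouse 8. Given the shared sequence shown above, how reads were divided between the genes cannot be read from these values. What separates the libraries was not tested.

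**Figure D4:**
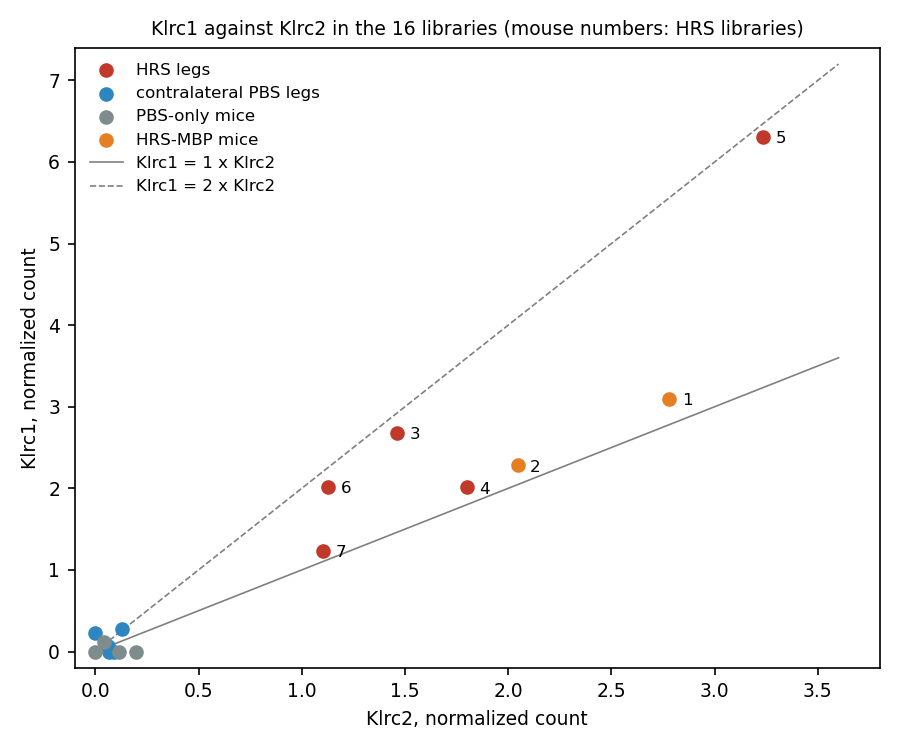
Klrc1 against Klrc2, in normalized counts, in the 16 libraries (points by group; mouse numbers beside the 7 HRS libraries; lines of fixed ratio). HRS libraries 1, 2, 4 and 7 lie near the lower line, at 1.11 to 1.12, and 3, 5 and 6 near the upper one, at 1.78 to 1.95.

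The genes around these receptors, given as lists chosen with earlier results of these data known, were mostly higher in HRS legs than in contralateral legs. Many of them, like 7 of the 8 receptors, passed the filter on low values only through the HRS libraries, so that counts of rising genes were in part fixed by it. This held for 8 of 13 co-receptors, 3 of 13 adaptors, 0 of 6 ligands, 4 of 12 transcription factors, 10 of 12 cytotoxic genes, 5 of 11 cytokine genes, 2 of 8 subset markers and 8 of 11 T cell markers that passed. Of 10 other Ly49 receptors, 3 passed, all only through the HRS libraries, which left them little room but to be higher. Klra2, which macrophages also express, changed most, by 3.81. Klra7 (Ly49G) rose by 2.06 and Klra4 (Ly49D) by 1.32. Of 9 other lectin-like receptors, 4 passed, again all only through the HRS libraries (means of 0.0577 to 0.166 over the 9 PBS libraries), with Klrb1b (an inhibitory relative of NK1.1) at 2.60 and Klre1 at 1.83. Of 13 other activating and co-receptors, 12 rose, where 16.9% of all tested genes were called higher. The remaining 1, Itga2 (CD49b, the other NK marker of this strain), was not called at 0.90 ± 0.29 (limma adjusted p = 0.0143, below the fold threshold). Il2rb, the interleukin-2 and interleukin-15 receptor beta chain, was highest at 4.15.

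Adaptors rose with the receptors. Of 13 adaptor and signalling genes tested, 12 were called higher, as were 16.9% of all tested genes. Their median fold change was 3.43, against 0.08 over all tested genes. DAP12 (Tyrobp) averaged 64.0 ± 33.98 in HRS legs and 4.90 ± 1.66 in contralateral legs (SD, n = 5 each), and FcR gamma (Fcer1g) 79.0 ± 41.2 and 4.99 ± 2.07. Both serve myeloid cells as well, and both are far above the receptors in level. DAP10 (Hcst), the partner of NKG2D, was at 1.91 ± 1.001 and 0.177 ± 0.174, a fold change of 1.75 ± 0.28 (limma adjusted p = 0.000163). The phosphatase SHP-1 (Ptpn6) was the largest at 3.89. CD3 zeta (Cd247), the other partner of Ncr1, was at 0.64 (adjusted p = 0.0576) and was not called.

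Of 6 ligand genes tested, 3 rose and 1 fell, where 2781 of the 16414 tested genes were called higher and 1029 lower. H2-T23, which encodes the Qa-1 ligand of CD94-NKG2, averaged 210 ± 123 in HRS legs and 33.1 ± 6.84 in contralateral legs, a fold change of 2.52 ± 0.32 (limma adjusted p = 2.37e-05). Ulbp1, the NKG2D ligand MULT1, rose by 2.40. Of the other NKG2D ligands, Raet1d, Raet1e and H60b did not pass the filter, and Raet1a, Raet1b, Raet1c and H60c were not found by symbol among the genes given. Raet1d averaged 0.494 ± 0.341 in HRS legs and 0.0131 ± 0.0180 in contralateral legs (SD, n = 5 each). Raet1e was at 0.312 to 0.849 in HRS legs and at 0 to 0.128 in contralateral legs, and H60b was at 0.0623 to 0.294 and 0 to 0.0824. Among the cadherins read by KLRG1, Cdh2 (N-cadherin) rose by 1.35, Cdh4 fell by 1.72 and Cdh1 (E-cadherin) was at -0.63 (adjusted p = 0.163).

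Over all 16414 tested genes, 2781 were called higher and 1029 lower between these legs, beside which the counts here are to be read. Of 12 transcription factors tested, 6 rose and 1 fell. Eomes, which NK cells need and type 1 innate lymphoid cells (ILC1) largely lack, was at 2.44 ± 1.27 in HRS legs and 0.0745 ± 0.0924 in contralateral legs (fold change 2.28), and Tbx21 (T-bet) at 3.71 ± 2.22 and 0.822 ± 0.141 (fold change 1.55). Runx3 was the largest at 2.91, and Zbtb16 (PLZF) fell by 1.54. Of 12 cytotoxic effector genes, 11 rose and 1, Gzmm, fell by 1.16, and Ccl5 was the largest at 4.70. Perforin (Prf1) was at 5.45 ± 3.88 against 0.137 ± 0.096 and Gzma at 7.06 ± 4.82 against 0.372 ± 0.178. Of 11 NK cytokine and receptor genes, 8 rose and 1, Il12a, fell by 1.03, with Il21r the largest at 4.02, and Il15 was at -0.40 (adjusted p = 0.114). Of 8 genes that separate circulating NK cells from ILC1, 6 rose (Ly6c2, Itgam, Cx3cr1, Il7r, Cxcr6 and Cd200r1), with Ly6c2 changed most at 4.14. Of the ILC1 markers, Cxcr6, Il7r and Cd200r1 were thus among those that rose. Itga1 (CD49a) and Tnfsf10 (TRAIL), also ILC1 markers, were at 0.17 (adjusted p = 0.220) and 0.83 (0.0512) and were not called. S1pr5, a marker of circulating NK cells, did not pass the filter. Most of the 8 tested are shared with myeloid or T cells. In none of these lists was a gene called between contralateral legs and PBS-only mice, or between HRS-MBP mice and HRS legs. Few genes were called there at all, 0.00609% and 0.463% of those tested.

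Markers of other cells moved in the same libraries. Of 11 T cell markers, 10 rose, where 2781 of the 16414 tested genes were called higher and 1029 lower. Among these markers Cd4 changed most and Cd28 was at -0.09. Their summed level was 27.2 to 152 in HRS legs, 5.76 to 13.0 in contralateral legs, 6.07 to 14.3 in PBS-only mice and 116 and 157 in HRS-MBP mice, and no marker was at 0 throughout a group. Cd3e was at 2.37 to 12.5 in HRS legs, and Cd8a, which marks the T cells that share several of these receptors, at 1.46 to 14.0, both highest in leg 5 like the 8 receptors. Cd8a was 0.129 ± 0.105 in contralateral legs, a fold change of 2.76 ± 0.40 (limma adjusted p = 7.13e-05). Of 2 gamma delta T cell markers tested, Trdc rose by 1.66 and Sox13 was at -0.09 (adjusted p = 0.496). Of the other lists, 7 of 7 macrophage markers, 5 of 5 neutrophil markers and 6 of 7 B and plasma cell markers were called higher, led by Adgre1 (4.13), Csf3r (4.19) and Jchain (3.97), with macrophage sums of 1161 to 5902 in HRS legs and 134 to 351 in contralateral legs. Of these, 4 of 5 neutrophil and 6 of 7 B and plasma cell markers, but 0 of 7 macrophage markers, passed the filter only through the HRS libraries. So did Trdc. Of 4 mast cell and basophil markers 1 rose (Kit), and of 7 muscle fibre markers 3 fell (Ckm, Tnnt3 and Ttn), while Myh4 was at -1.18 (adjusted p = 0.163) and was not called. The part of these cells in the receptor levels was not tested.

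Set against T cells, Ncr1 was at 49.9, 66.1, 35.8, 52.3 and 71.1 per 100 of Cd3e in the HRS legs of mice 3 to 7, and at 31.3 and 17.4 in HRS-MBP mice 1 and 2, both below every HRS leg. Per 100 of Cd3e, Ncr1 was at 23.5, 16.6, 13.6, 26.3 and 59.9999 in the contralateral legs of mice 3 to 7. This was below the HRS leg in 5 of 5 mice. In the PBS-only libraries it was at 0, 6.45, 38.5 and 0, with few reads of Ncr1 in either group. The direction between legs depended on the marker. Mean Ncr1 was 2.54 in HRS legs and 0.170 in contralateral legs. Cd3e averaged 5.34 and 0.670 there, and Cd3d 3.997 and 0.115. Mean Ncr1 was thus below Cd3d in HRS legs and above it in contralateral legs. The summed level of the 8 receptors was 27.5, 23.7, 60.1, 20.05 and 16.6 in HRS legs, 0.801, 1.80, 1.76, 0.9999 and 3.26 in contralateral legs, 0.930 to 2.28 in PBS-only mice and 45.6 and 38.2 in HRS-MBP mice. Per 100 of the T cell sum, this was 39.5 to 61.0 in HRS legs, 24.4 and 39.3 in HRS-MBP mice and 10.7 to 56.5 in contralateral legs. Cd28, the T cell marker that did not rise, made up 55.6 to 87.1% of the T cell sum in the 9 PBS libraries and 3.62 to 25.9% in HRS legs, and the lower ratios of the receptor sum in contralateral legs did not hold without it. Over the other 10 markers, a sum added after the values were seen, the receptors were at 40.9 to 82.4 per 100 in HRS legs, 41.0 to 127 in contralateral legs, 49.6 to 92.1 in PBS-only mice and 25.9 and 41.1 in HRS-MBP mice. Contralateral leg 7 and HRS leg 7 were the highest of their groups with and without Cd28. These ratios were not tested.

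**Figure D5:**
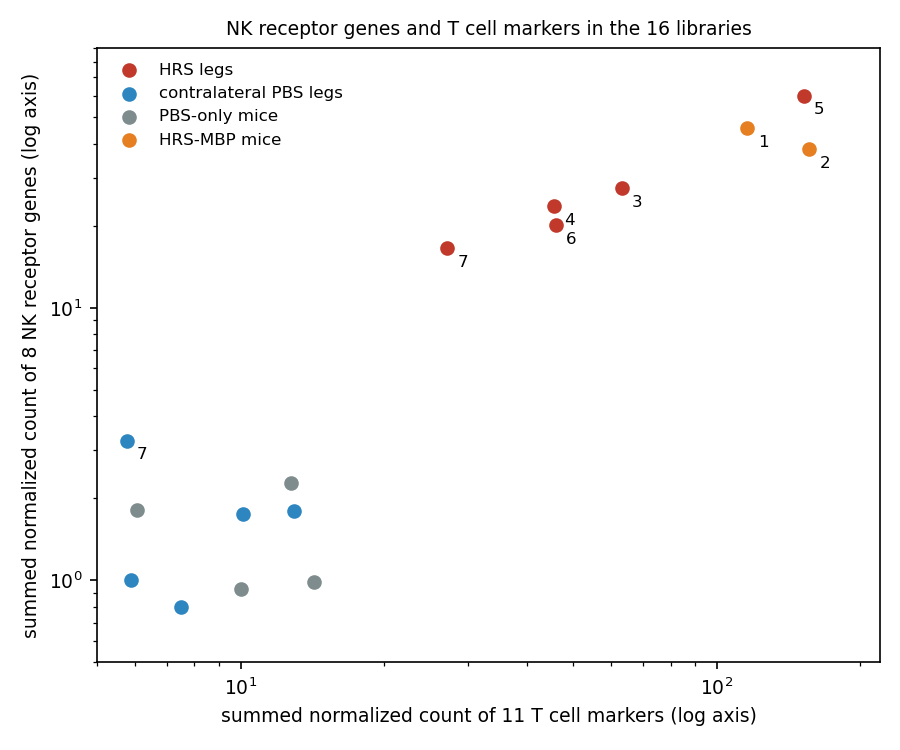
Summed normalized count of the 8 receptor genes against that of 11 T cell markers in the 16 libraries (both axes log; points by group; mouse numbers for the HRS libraries and contralateral leg 7). The 7 HRS libraries lie at 27.2 to 157 for T cell markers and 16.6 to 60.1 for the receptors, and contralateral leg 7 combines 5.76 with 3.26. Cd28 makes up 55.6 to 87.1% of the T cell sum in the PBS libraries.

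Over the 16 libraries, the log levels of the 8 genes correlated with each other at Pearson's r of 0.89 to 0.99 (28 pairs). All libraries share the split between HRS and PBS muscle, so that any gene following it scores high, and these values are a description. The 5 closest tested genes of each receptor had r of 0.980 to 0.995. For Klrb1c they were Il2rb, Gimap3, Itgal, Irf8 and Bcl3, and for Klrd1 they were Slfn5, Ncr1, Cyba, Actg1 and Myd88. For Klrk1 they included Ube2l6, Parp11, Snx20 and Prf1. Klrc1 was followed most closely by AA467197, Klri2, Trbc2, Klra8 and Pycard, and Klrc2 by Klrb1f, Klra7, Ncr1, Klra13-ps and Ube2l6. The genes nearest Klrg1 were Slc31a1, Apol7e, Carmil2, Malt1 and Tigit, and those nearest Klra8 were Baz1a, Rab32, Prkcd, Cd47 and AA467197. Ncr1 was closest to Slfn5, Klrd1, Klrc2, Tapbp and Ube2l6.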

How the data were processed

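The deposited table holds normalized counts per gene (unit: signal, linear), made by the authors; per the labels STAR 2.7.8a and limma were used with GRCm39, while the coordinates fit GENCODE M21 (98.9% of 25652 matched genes had the same start and end). The normalization method, counting tool and use of strand are not given in the sources used here. Low values were whole multiples of 1 step for 75.4 to 77.7%, within 0.02 steps, so reads were not recovered and no count model was run. Library totals were 726797 to 1252360. "Reads" are a value divided by its step, and intervals on them (95%) and floors of 3 reads cover counting error only.

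limma 3.58.1 (R 4.3.3) fitted 4 groups to log2(normalized count + 0.5) for the 16414 genes with a mean of at least 0.5, with a mean-variance trend and Benjamini-Hochberg adjustment over all of them, and was tested on simulated data. Nothing beyond the mouse numbers says how samples were separated, so p-values measure the spread between these libraries. The 2 legs of mice 3 to 7 are paired by animal, a pairing that the limma fit left out. That fit also took the 2 legs of each PBS-only mouse as separate libraries. Deviations from the group means correlated by 0.12, 0.16, 0.10, -0.03 and -0.37 between the legs of those mice. Members, lists and rules were chosen with earlier results of these data known: all 8 receptors are named, with the largest change of each list, a set of adaptors, ligands and lymphocyte genes, and the 5 genes most correlated with each receptor. Of the last, 1 is not reported here. Other genes were named after their values were seen. Alternatives were other pseudocounts, filters, scalings and variance models, limma-voom, a mouse block, averaged PBS-only legs and each mouse left out. Python 3.11.15 was used for the rest.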

Additional observations from a re-analysis of the deposited data

Results flagged for a closer look

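Each gene and the sum of the 8 were examined for a single library far from the rest of its group. The groups were the HRS legs, contralateral legs and PBS-only mice, which gave 27 sets in all. The usual limit for the group's size marks about 1 in 20 sets of independent, normally spread values. These genes were highly correlated, the sum contains them and some values were 0, so the number marked cannot be set against that rate. In 6 sets the gap to the nearest library exceeded the limit, 4 of them at HRS leg 5. In HRS legs, leg 5 was far above the others for Klrk1 (27.2 against 10.9 for the next, a gap of 0.798 of the range), Klrg1 (3.39 against 0.985, 0.790), Klrc1 (6.31 against 2.68, 0.715) and the sum of the 8 (60.1 against 27.5, 0.749). The same leg had the highest T cell marker sum (152) and the lowest mitochondrial share (3.41%) of the HRS legs. Contralateral PBS leg 7 was above its group for Ncr1 (0.323, on 12 reads, against 0.147, a gap of 0.848 of the range). The left leg of PBS-only mouse 8 was the only library of its group with Klrc1 above 0 (0.121, on 3 reads). Its gap was 1.0 of the range, as any lone value above 0 has.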

How the results depend on the processing

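In each comparison of HRS muscle with PBS muscle the 8 genes kept their direction under every alternative run. A pseudocount of 2 left 5 of 8 called in HRS legs against contralateral legs, 5 against PBS-only mice and 6 in HRS-MBP against PBS-only mice, and a filter at a mean of 2 left 1 gene (Klrk1) to test and call in each of these and in HRS-MBP against PBS-only mice. With any 1 mouse left out, the count in HRS-MBP mice against HRS legs ran from 0 to 2. With a replicate block for the mouse, all 8 were called between legs (Klrg1 1.39, adjusted p = 0.0205), so it changed no call. Signs near 0 turned between contralateral legs and PBS-only mice. With a smaller pseudocount Klrb1c, at 0.03, was -0.0068 and Klrk1, at -0.0080, was 0.0082. Klrb1c was -0.10 under quantile normalization and -0.0047 with limma-voom. With a mouse left out, Klrb1c ran from -0.11 to 0.13 (-0.05 without mouse 5, -0.07 without mouse 8), Klrk1 from -0.37 to 0.35 (0.10 without mouse 3, 0.02 without mouse 5, 0.0067 without mouse 6) and Klrc2 from -0.077 to 0.0053 (without mouse 5). Between HRS-MBP mice and HRS legs, Klrd1 ran from -0.064 (without mouse 1) to 0.49, with -0.0072 without mouse 7, and Klrc1 from -0.11 (without mouse 7) to 0.38, with -0.10 without mouse 1. The cause was not tested. Over all genes, quantile normalization moved the median change between legs from 0.08 to -0.16 and limma-voom to 0.48. Calls there were 2781 higher and 1029 lower, against 2093 and 1632 by quantile normalization and 4312 and 251 by limma-voom. Against PBS-only mice they were 3100 and 963, 2164 and 1807, and 4631 and 281, and for HRS-MBP mice 3400 and 1671, 2511 and 2800, and 5193 and 510. HRS-MBP mice against HRS legs gave 65 and 11, but 4 and 0 with only those groups fitted, 26 and 9 with a filter at 2, and 502 and 53 without mouse 5. Depth limits the PBS-only values most, at 3 to 49 reads a gene.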
